A study of Mus musculus with 26 samples.

Results

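Nuclear genes for subunits of respiratory complexes III, IV and V were described in RNA sequencing of left ventricle from 26 mice. They were the rows whose symbol begins with Uqcr (complex III), with Cox4 to Cox8 (complex IV) or with Atp5 (complex V), 57 of the 56941 genes listed. Of these rows, 43 are subunit genes (8, 18 and 17 for the complexes in that order), 13 are pseudogene copies and 1 is a second row under the symbol Atp5o that had no count. The complex IV genes include Cox7a2l, an assembly factor related to subunit 7a. The copies include Cox5b-ps, which is annotated as protein coding. An expression filter left 41 of the 43 subunit genes for testing, among 15357 genes tested in all. The other two are testis forms: Cox8c had no count in any mouse, and Cox7b2 had 2 to 14 counts a mouse.

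The knockout mice (cKO, aMHC-CreTg/0-Ppp2r2aL/L) lack Ppp2r2a in cardiomyocytes, because the cardiomyocyte promoter αMHC drives a Cre recombinase that removes the loxP-flanked part of both alleles. B55α, the product of Ppp2r2a, is 1 of the regulatory subunits that steer the phosphatase PP2A to its substrates. Controls (Ctrl, aMHC-Cre0/0-Ppp2r2aL/L) have both flanked alleles and no transgene. Each sex contributed 6 Ctrl and 7 cKO mice, and all had received saline from an osmotic pump for 2 weeks at an age of 12 to 16 weeks. The strain field names C57BL/6N, while the design text gives C57BL6/N for the floxed line and FVB for the Cre line, so cKO mice can carry FVB sequence around the transgene. Mice with Cre and without flanked alleles were not analysed here, and an effect of Cre alone and one of the deletion cannot be told apart.

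Complex III, cytochrome bc1, takes electrons from ubiquinol and hands them to cytochrome c. Complex IV, cytochrome c oxidase, passes them to oxygen, and both complexes pump protons across the inner mitochondrial membrane. Complex V, ATP synthase, lets the protons return through a rotating ring of c subunits and makes ATP in its F1 head. The heart depends on this chain for nearly all of its ATP, and several complex IV subunits exist in a heart and muscle form and a ubiquitous form encoded by separate genes. Mitochondrial DNA encodes a few of the subunits, catalytic ones among them, and nuclear genes encode the rest and the assembly factors.

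Libraries held 14403102 to 30867399 counts. For Ppp2r2a itself, cKO minus Ctrl on the log2 scale was -1.40 in males (edgeR adjusted p = 1.86e-06, SE 0.14) and -1.58 in females (edgeR adjusted p = 1.9e-07, SE 0.14). Ctrl males 3 and 6 had lower Ppp2r2a than the other Ctrl males, and results are also given without them where they change. The marker genes of ventricular cardiomyocytes were abundant in every library (Myh6 averaged 27849 CPM, counts scaled to a library total of 1000000), while the atrial genes Myl7 and Sln had at most 3 counts in any library and the skeletal muscle genes Myh1, Myh2, Myh4 and Actn3 at most 5. The other members of these lists were present in every library: the atrial marker Myl4 at 18 to 49 counts, and Ckm, the muscle creatine kinase that the heart also makes, at 39929 to 97044 counts. Ckm was called lower in cKO over both sexes (log2 fold change -0.14, edgeR adjusted p = 0.0265, SE 0.03), and Myl4 was not called.

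The subunit genes differ in what lies upstream of them, and 5 promoters are shown because they belong to genes the results below turn on: the 2 genes called in males, and a heart form and 2 ubiquitous forms of complex IV subunits. Each line is the 250 bases before the annotated start, 5′ to 3′ along the gene, from the RefSeq annotation of GRCm38.p6 (the deposited counts were made on GRCm39). Capitals mark matches, on either strand, to the 6 motifs searched. These were NRF1 (GCGCA, then any base, then GCGC), ETS (CCGGAAG), ERR (AAGGTCA), YY1 (AAGATGGC), SP (GGGCGG) and MEF2 (CTA, then any 4 bases, then TAG), the letters bound by factor families known to act on respiratory chain or muscle genes.
Atp5c1 (chr2:10080433-10080682, minus strand): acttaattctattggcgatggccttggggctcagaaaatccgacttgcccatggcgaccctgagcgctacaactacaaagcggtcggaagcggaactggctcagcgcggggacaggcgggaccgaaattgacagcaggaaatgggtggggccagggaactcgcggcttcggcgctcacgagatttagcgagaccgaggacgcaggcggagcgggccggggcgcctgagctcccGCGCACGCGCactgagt
Atp5o (chr16:91931631-91931880, minus strand): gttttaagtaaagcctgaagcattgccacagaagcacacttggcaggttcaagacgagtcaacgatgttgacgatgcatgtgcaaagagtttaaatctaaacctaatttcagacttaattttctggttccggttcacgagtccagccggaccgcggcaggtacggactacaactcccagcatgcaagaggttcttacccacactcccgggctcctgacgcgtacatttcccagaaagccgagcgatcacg
Cox6a1 (chr5:115348959-115349208, minus strand): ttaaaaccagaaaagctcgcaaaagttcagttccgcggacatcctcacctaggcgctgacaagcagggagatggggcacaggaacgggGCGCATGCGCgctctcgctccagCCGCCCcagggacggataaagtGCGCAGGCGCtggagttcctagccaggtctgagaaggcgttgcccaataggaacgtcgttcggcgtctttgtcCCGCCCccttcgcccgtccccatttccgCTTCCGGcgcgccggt
Cox7a1 (chr7:30183921-30184170, plus strand): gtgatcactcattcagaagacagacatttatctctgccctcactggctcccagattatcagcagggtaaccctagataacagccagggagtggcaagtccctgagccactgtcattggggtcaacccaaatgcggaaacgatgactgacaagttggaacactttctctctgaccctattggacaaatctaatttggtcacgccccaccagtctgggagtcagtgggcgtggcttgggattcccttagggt
Cox7a2 (chr9:79759854-79760103, minus strand): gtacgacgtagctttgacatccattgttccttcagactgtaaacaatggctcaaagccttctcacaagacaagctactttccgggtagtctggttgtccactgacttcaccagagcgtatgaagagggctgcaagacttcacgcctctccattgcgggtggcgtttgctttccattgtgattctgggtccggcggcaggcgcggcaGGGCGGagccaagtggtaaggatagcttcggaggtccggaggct

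The Atp5c1 window holds an NRF1 match whose first base lies at -17 from the start. The Cox6a1 window holds 2 NRF1 matches (from -162 and -117), an ETS match (from -16) and 2 SP matches (from -139 and -44), and Cox7a2 holds 1 SP match (from -44). No match was found in the windows of Atp5o and of the heart form Cox7a1. Promoters were searched for 32 of the 41 tested subunit genes, in 35 windows. Windows on chromosome 18, where Atp5a1 lies, were left out for the subunit genes but not for all genes. NRF1 letters were in 5 of the 35 windows (14.3%; Atp5c1, Atp5g2, Atp5h, Atp5k and Cox6a1), against 3.74% of 32851 promoter windows of all genes. ETS letters were in 8 (22.9%, against 6.91%), ERR in 2 (5.71%, against 4.08%), YY1 in 1 (2.86%, against 1.56%), SP in 10 (28.6%, against 32.7%) and MEF2 in 1 (2.86%, against 3.2%). These are matches of letters and not binding sites.

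The level of the members was compared per kilobase of transcript, as scaled CPM per kilobase averaged over all mice. Atp5b, the catalytic β subunit of the F1 head, was the most abundant at 2681, followed by Cox6a2 at 2349, Cox4i1 at 2241 and Atp5a1, the α subunit, at 1880. Without division by length, the subunit genes together took 3.06% to 3.71% of a library's counts. In Ctrl males complex V held 2.01% ± 0.08 of counts (SD, n = 6), complex IV 0.907% ± 0.06 (SD, n = 6) and complex III 0.562% ± 0.03 (SD, n = 6).

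Knockout males had less transcript of every complex per library, though not relative to cardiomyocyte markers (medians of 0.00, 0.00 and -0.01 on the log2 scale for complexes III, IV and V with that scaling). The summed CPM of complex III was 5357, 5650 and 6140 in the lowest, median and highest Ctrl male, and 4948, 5146 and 5293 in cKO males. For complex IV the sums were 8661, 9103 and 9698 in Ctrl males and 7674, 8325 and 8553 in cKO males. For complex V they were 19376, 20030 and 21602 in Ctrl males and 17636, 18291 and 19094 in cKO males. In none of the complexes did these CPM sums overlap between the male groups. The female groups overlapped in each complex: 5468 to 5954 against 5004 to 5678 for complex III, 9258 to 10433 against 8579 to 10579 for complex IV, and 19481 to 21617 against 18281 to 20596 for complex V, Ctrl before cKO. The separation of complex IV in males depended on the scaling of library totals. As a share of all counts, without that scaling, complex IV was at 0.822% in the lowest Ctrl male (male 2). The highest cKO male was at 0.846%, so the male groups overlapped. Complexes III and V stayed apart as shares: 0.531% and 1.91% in the lowest Ctrl male, 0.528% and 1.87% in the highest cKO male. In whole tissue, fewer cells of a type and less RNA per cell cannot be told apart.

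**Figure D1:**
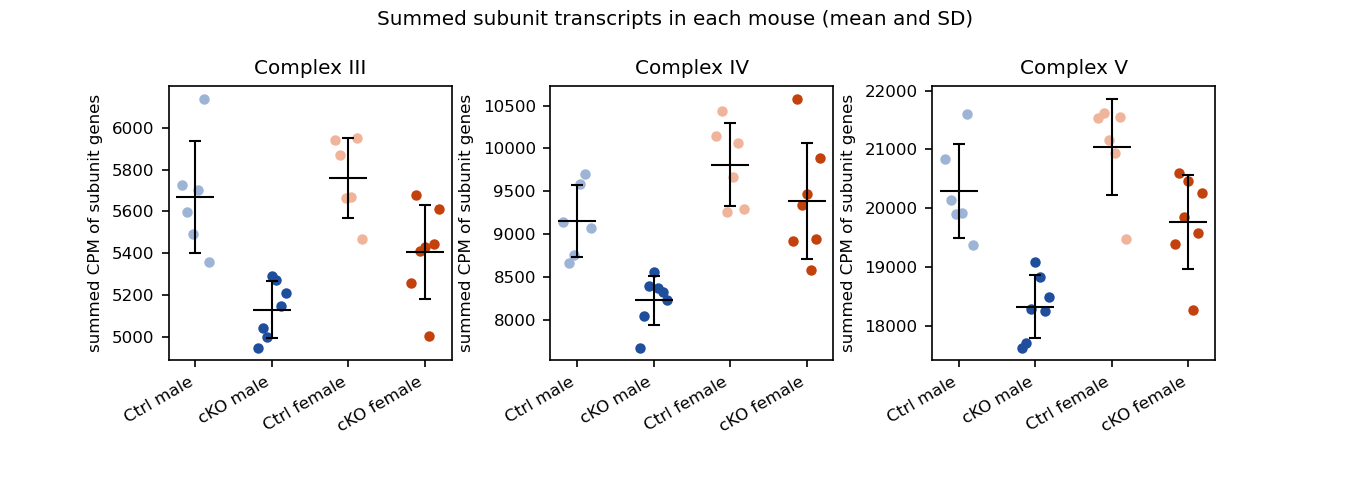
Summed CPM of the tested and untested subunit genes of complexes III, IV and V (vertical axes, not starting at 0) in each mouse, by group, with mean and SD. All 7 cKO males lie below all 6 Ctrl males in each complex, while the female groups overlap.

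Gene by gene, the differences in males were small and all on 1 side. All 41 tested subunit genes had a log2 fold change below 0 in cKO males, against 49.7% of all genes tested, with a median of -0.15 and a range from -0.22 (Atp5o) to -0.09 (Cox8a). The median of all genes was 0.00. By edgeR's quasi-likelihood test with Benjamini-Hochberg adjustment over all genes, 2 of the 41 were called lower at an adjusted p under 0.05, where 0.26% of all genes were called lower, and 35 had an unadjusted p under 0.05, where 13.2% of all genes did. Both called genes belong to complex V. In 10 genes no cKO male reached the lowest Ctrl male, against 0.873% of all genes: Uqcrb and Uqcrh of complex III, Cox4i1 and Cox5a of complex IV, and Atp5c1, Atp5g3, Atp5h, Atp5j, Atp5o and Atp5pb of complex V. The genes share libraries and vary together, so these counts are not counts of independent events.

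**Figure D2:**
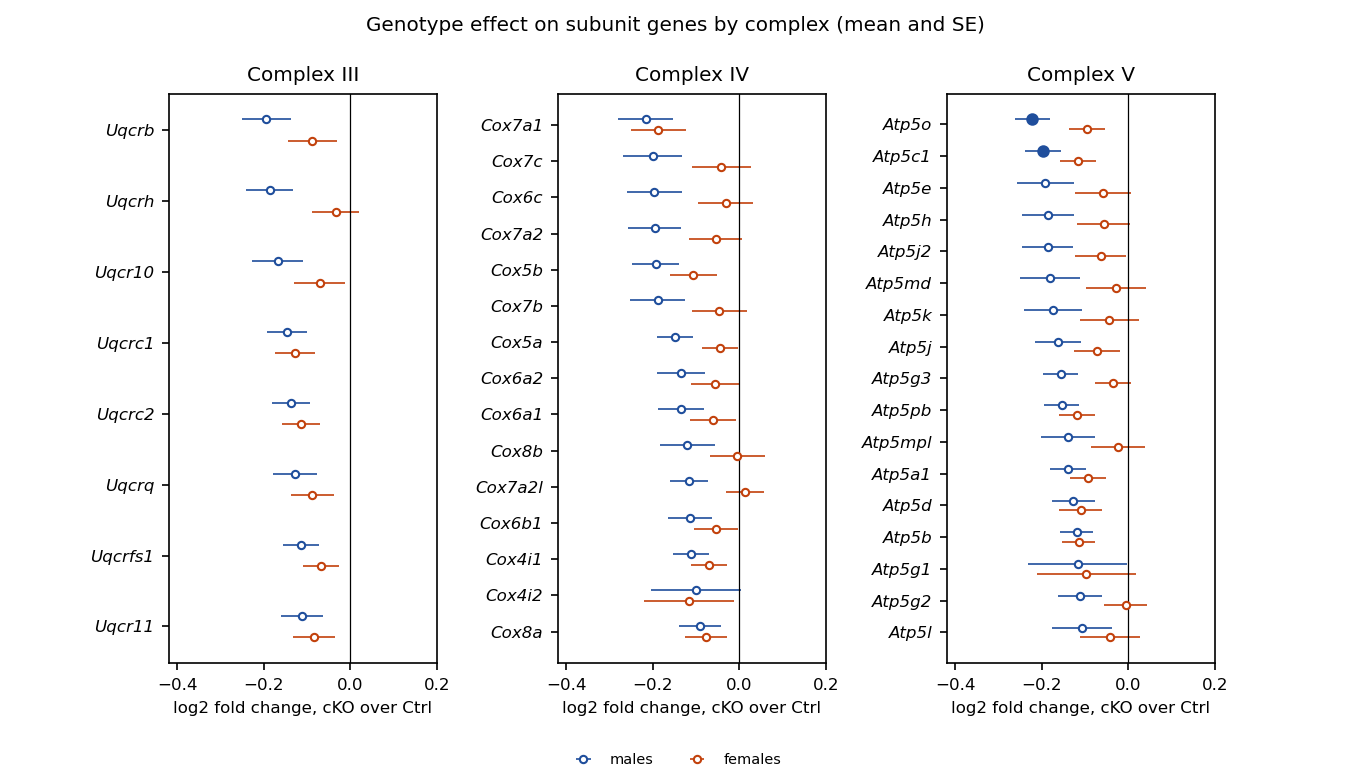
Log2 fold change of cKO over Ctrl (points) with its standard error (bars) for each tested subunit gene, in males and females, by complex. Filled points passed an adjusted p under 0.05 (Atp5o and Atp5c1 in males); Cox6b2, at under 2.1 CPM in every mouse and with an SE above 0.2, is left out. All male points lie below 0.

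Atp5o (ENSMUSG00000022956) encodes the oligomycin sensitivity protein, which joins the F1 head to the peripheral stalk of ATP synthase. It was at 777.1, 813 and 866.3 CPM in the lowest, median and highest Ctrl male and at 665.6, 694.2 and 734.2 CPM in cKO males, so every cKO male lay below every Ctrl male. Its mean fell from 815.2 ± 34 CPM (SD, n = 6) to 698.9 ± 22.1 CPM (SD, n = 7), a log2 fold change of -0.22 (edgeR adjusted p = 0.0238, SE 0.04). Atp5c1 (ENSMUSG00000025781) encodes the γ subunit, the shaft that turns inside the head. It ranged from 1220 to 1316 CPM in Ctrl males (median 1251) and from 1067 to 1141 CPM in cKO males (median 1093). These groups did not overlap either, and the log2 fold change was -0.20 (edgeR adjusted p = 0.0316, SE 0.04). Neither call held without Ctrl male 5, the highest Ctrl male in 22 of the 41 genes (edgeR adjusted p = 0.0872 for Atp5o and 0.107 for Atp5c1), without cKO male 5 (0.0522 for each), or without Ctrl males 3 and 6 together (0.0536 and 0.0545), and leaving out Ctrl male 1, 2 or 4 or cKO male 1, 2 or 6 ended the call of Atp5c1, as did testing without an expression filter (0.0797) and offsets for transcript length and GC content (0.0932). A DESeq2 Wald test called 15 of the 41 lower, where it called 1.67% of all genes lower. Of the 50-base windows of the annotated Atp5o transcript, 35.5% also occur in other annotated genes, against 3.97% for Atp5c1, so reads of Atp5o can have been split or lost in counting.

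The complexes were compared by the medians of their genes in males, which were -0.14 for complex III (8 genes), -0.14 for complex IV (16 genes) and -0.16 for complex V (17 genes). The spread of a mouse's mean over a complex around its group was 0.06, 0.07 and 0.07 on the log2 scale (pooled SD, in that order). The complexes were measured in the same libraries, so this spread between mice is not the error of a gap between complexes. No test was made between complexes.

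Within complex III, the core proteins Uqcrc1 and Uqcrc2 and the Rieske iron-sulfur protein Uqcrfs1, which carries electrons towards cytochrome c, had fold changes of -0.15, -0.14 and -0.12 in males. The 5 small accessory subunits had a median of -0.17, from -0.19 (Uqcrb) to -0.11 (Uqcr11). Uqcrb was at 472.1 to 553.2 CPM in Ctrl males and 408.6 to 459.6 CPM in cKO males, without overlap (edgeR adjusted p = 0.0975), and 43.2% of its windows occur in other annotated genes.

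Within complex IV, Cox7a1, the heart form of subunit 7a, had the lowest value in males at -0.22 (edgeR adjusted p = 0.101, SE 0.06), with 527 to 641.4 CPM in Ctrl males and 434.5 to 547.2 CPM in cKO males, which overlap. Cox5a, which with Cox4i1 is among the accessory subunits that assemble early around the catalytic core, was at 722 to 804.1 CPM in Ctrl males and 666.5 to 717.2 CPM in cKO males, without overlap (log2 fold change -0.15, edgeR adjusted p = 0.0848, SE 0.04). Cox7c, Cox6c and Cox7a2 each lay at -0.20, and Cox5b at -0.19. In cKO male 1 Cox6c was at 636 CPM and Cox7c at 359 CPM, below the other 6 (701.5 to 723.7 and 391.3 to 409.9 CPM).

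Within complex V, all 4 genes of the peripheral stalk (Atp5o, Atp5pb, Atp5h and Atp5j) separated the male groups without overlap, with a median of -0.17. The 5 genes of the membrane part (Atp5j2, Atp5k, Atp5l, Atp5md and Atp5mpl) also had a median of -0.17, and all 5 overlapped. The 5 genes of the F1 head had a median of -0.14, from -0.20 (Atp5c1) to -0.12 (Atp5b). The 3 genes for the c ring had a median of -0.12. Atp5g1 was the most variable of these, with an SE of 0.11 and values from 744.5 to 1153 CPM in cKO males, and an annotated transcript of 4715 bases for this gene shares 50-base windows with 163 other annotated genes.

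In females 39 of the 41 genes lay closer to 0 than in males, and none passed the test. The exceptions were Cox4i2 (-0.12 in females and -0.10 in males) and Cox6b2 (-0.48 and -0.21). Of the 41, 40 had a fold change below 0, against 48.9% of all genes, with a median of -0.07. No subunit gene was called by edgeR, which called 0.0326% of all genes, or by DESeq2, which called 0.013% of all genes lower; 9 had an unadjusted p under 0.05, against 5.15%, and the smallest adjusted p was 0.825. The medians were -0.09 for complex III, -0.06 for complex IV and -0.06 for complex V. No gene separated the female groups, where 0.0521% of all genes did so with cKO lower. The spread among cKO females was wide: cKO female 5 was the lowest of its group in 33 of the 41 genes, and cKO female 2, the shallowest library with 14403102 counts, was the highest in 25. Without cKO female 2 the medians were -0.11, -0.09 and -0.09 for complexes III, IV and V, and without cKO female 5 they were -0.07, -0.03 and -0.04.

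Some genes had like values in the sexes and others did not. The log2 fold change of Atp5b was -0.11 in females (SE 0.04) and -0.12 in males (SE 0.04), that of Uqcrc1 -0.13 (SE 0.05) and -0.15 (SE 0.05), and that of Cox7a1 -0.19 (SE 0.06) and -0.22 (SE 0.06). Cox6c and the hinge protein Uqcrh were at -0.03 in females and at -0.20 and -0.19 in males. The difference between the sexes was tested in the same fit and no subunit gene passed, as no gene did among all genes tested (0% called). The smallest edgeR adjusted p was 0.999, and 3 of the 41 had an unadjusted p under 0.05, against 3.96% of all genes. DESeq2 also called 0 of the 41.

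Averaged over both sexes, 9 of the 41 were called lower in cKO, where 0.866% of all genes were called lower, and all 41 lay below 0 (median -0.11), against 48.4% of all genes. They include the core proteins of complex III, Uqcrc1 (log2 fold change -0.14, edgeR adjusted p = 0.0308, SE 0.03) and Uqcrc2 (-0.13, edgeR adjusted p = 0.0377, SE 0.03). In complex IV they are Cox7a1 (-0.20, edgeR adjusted p = 0.0207, SE 0.05) and Cox5b, an accessory subunit on the matrix side (-0.15, edgeR adjusted p = 0.0457, SE 0.04). In complex V they are 3 subunits of the F1 head and 2 of the stalk: Atp5c1 (-0.16, edgeR adjusted p = 0.00965), Atp5b (-0.12, 0.026), Atp5a1 (-0.12, 0.0423), Atp5o (-0.16, 0.00952) and Atp5pb, subunit b of the stalk (-0.14, 0.0168). Cox7a1 showed the direction in both sexes: Ctrl females were at 566.5, 628.8 and 686.1 CPM (lowest, median, highest) and cKO females at 495.2, 572.9 and 608.8 CPM. The count was 17 by the DESeq2 Wald test (2.36% of all genes lower) and 4 with replicate numbers as blocks (0.716%). It was 3 with offsets for length and GC content of the transcripts (0.755%) and 3 without Ctrl male 5 (0.369%). It was 4 without Ctrl male 1 (73 of 15471 genes lower) or Ctrl female 4 (79 of 15467). It was 5 without Ctrl female 1 (64 of 15482) or cKO female 5 (67 of 15320). Without cKO female 2 it was 14 (161 of 15328, against 133 of 15357 with all mice).

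**Figure D3:**
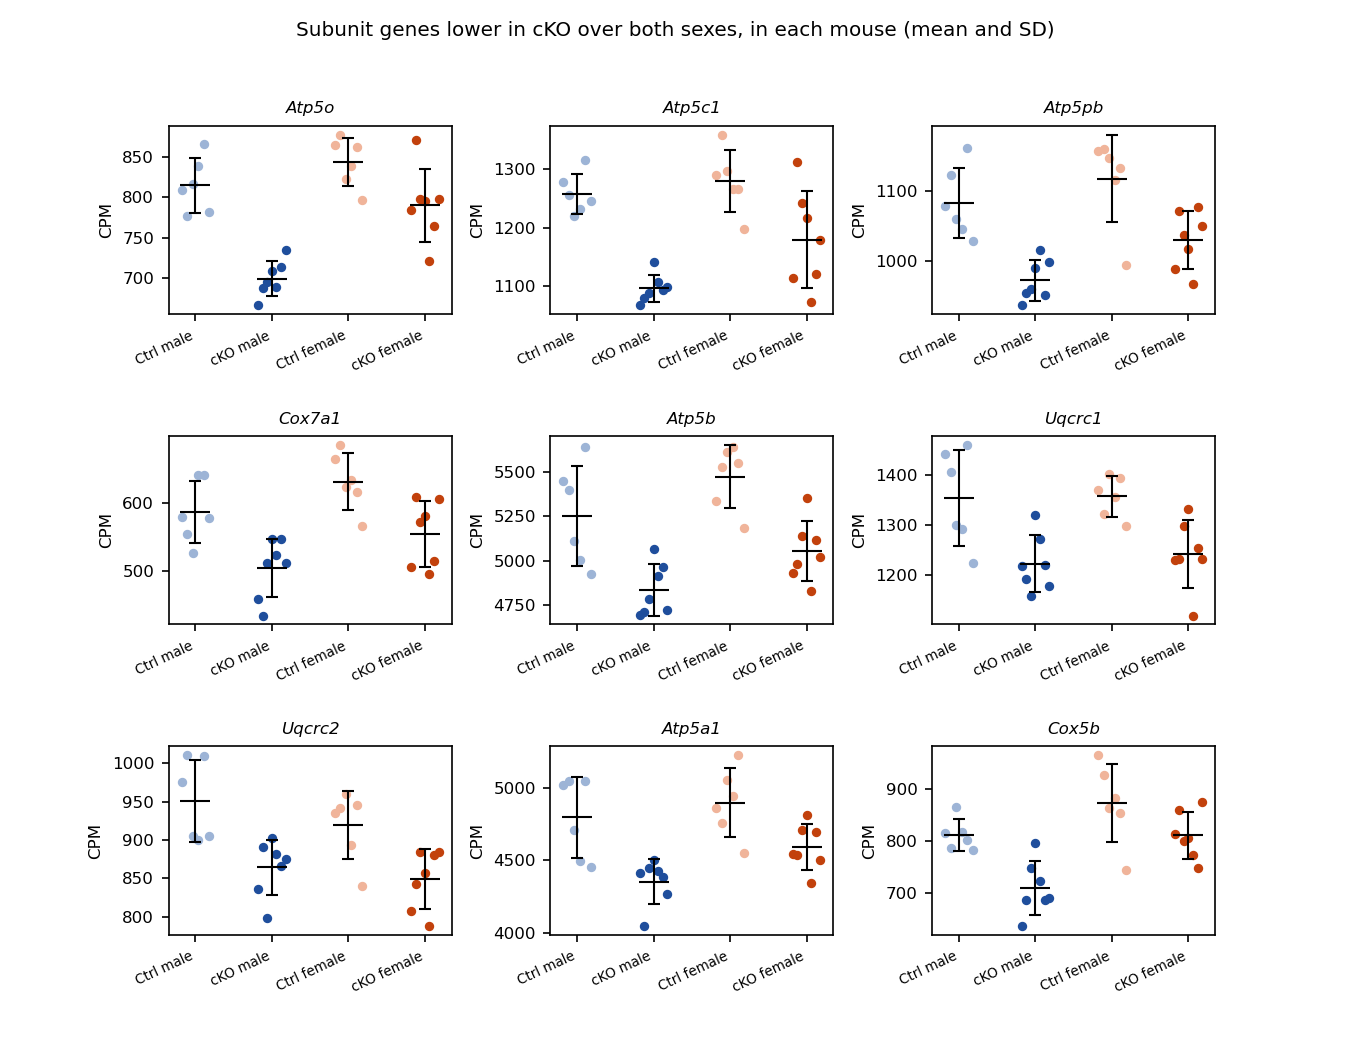
CPM (vertical axes, not starting at 0) in each mouse, with mean and SD, of the 9 subunit genes called lower in cKO over both sexes. Atp5o, Atp5c1 and Atp5pb separate the male groups, whereas in females cKO and Ctrl overlap in all 9.

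Heart and ubiquitous forms were compared within each mouse. Subunits 6a, 7a and 8 of complex IV have a form made in heart and skeletal muscle (Cox6a2, Cox7a1, Cox8b) and a form made in most tissues (Cox6a1, Cox7a2, Cox8a). Per kilobase, Ctrl males had 2295 ± 137 of Cox6a2 and 146 ± 12.7 of Cox6a1 (SD, n = 6), a ratio of 15.8 in which the heart form made up 94.0%. Cox8b was at 1182 ± 97.0 and Cox8a at 195 ± 10.0 (SD, n = 6), a ratio of 6.07 with 85.7% heart form. Cox7a1 was at 1494 ± 117 and Cox7a2 at 397 ± 30.4 (SD, n = 6), a ratio of 3.76 with 79.0% heart form. The heart form was therefore the larger of each pair in Ctrl males, most so for subunit 6a and least for subunit 7a, and no mouse of any group overlapped this order (93.3% to 94.9%, 83.1% to 87.1% and 74.9% to 80.4% heart form over all mice).

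No ratio of forms passed the test between the genotypes or the sexes. Over 6 pairs of genes and 5 contrasts (30 exact two-sided permutation tests over mice, Benjamini-Hochberg adjusted), 0 passed, at adjusted p of 0.49 or more. For Cox6a2 over Cox6a1 the log2 ratio in males was 4.06, 4.18 and 4.43 in the lowest, median and highest Ctrl mouse and 4.09, 4.24 and 4.37 in cKO. The difference was 0.00 with a 95% interval from -0.16 to 0.15 in males, and 0.00 (-0.18 to 0.18) in females, both intervals from inverting the permutation test. For Cox8b over Cox8a it was -0.03 (-0.17 to 0.13) in males and 0.07 (-0.01 to 0.15) in females. These intervals include changes as large as the fold changes of the genes themselves, so the test could not tell an unequal response of that size from none.

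Cox7a1 over Cox7a2 had the smallest p of the 30. In females the log2 ratio was 1.03, 1.14 and 1.29 in the lowest, median and highest Ctrl mouse and 0.92, 1.0 and 1.09 in cKO, so the groups overlapped. The difference was -0.13 (95% interval -0.24 to -0.03; exact permutation p = 0.0163, adjusted p = 0.49), which does not hold after adjustment. In males it was -0.02 (-0.18 to 0.12), and the difference between the sexes of -0.11 did not pass either (exact permutation p = 0.231, adjusted p = 0.77). In these terms Cox7a1 and Cox7a2 lay at -0.22 and -0.20 in males and at -0.19 and -0.06 in females.

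**Figure D4:**
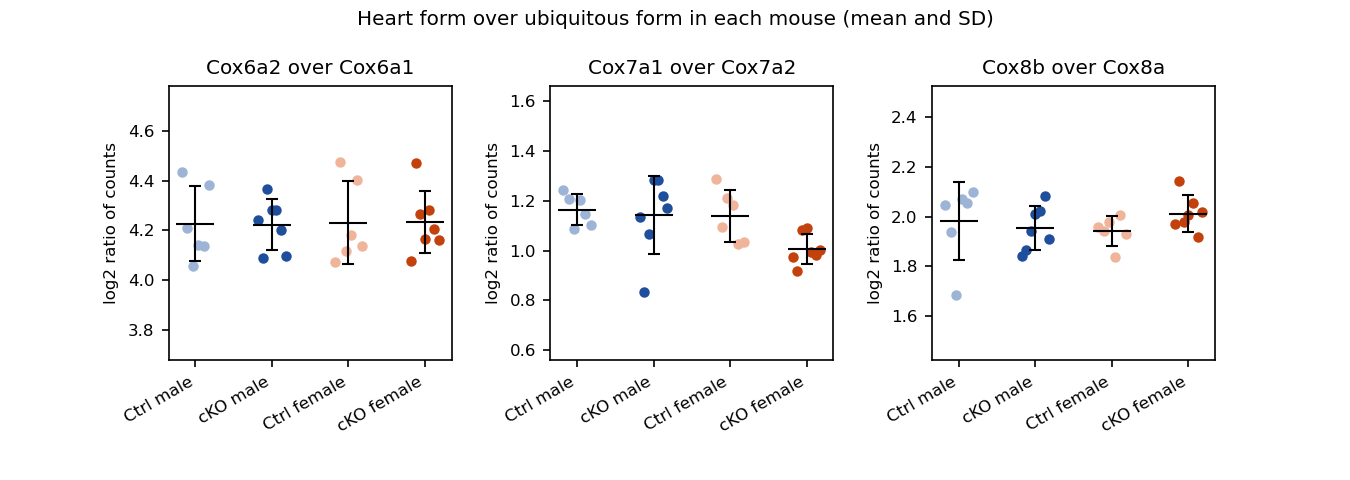
Log2 ratio of the counts of the heart form to those of the ubiquitous form (vertical axes, each spanning 1.1) in each mouse, by group, with mean and SD, for subunits 6a, 7a and 8. The groups overlap in every pair. For Cox7a1 over Cox7a2 the mean of cKO females is the lowest, 0.13 below that of Ctrl females, while the lowest single mouse is a cKO male.

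The remaining pairs have no heart form. Cox4i2, a form of subunit 4 induced by low oxygen in some tissues, was at 14.3 ± 2.19 per kilobase in Ctrl males against 2229 ± 91.9 for Cox4i1 (SD, n = 6), or 0.635% of the pair. The c ring is built from 1 mature protein made from 3 precursors. Per kilobase Atp5g1 and Atp5g3 were level in Ctrl males, at 1757 ± 167 and 1756 ± 91.4, and Atp5g2 was at 349 ± 8.53 (SD, n = 6). The level of Atp5g1 depends on the transcript taken, here 596 bases, and 87.4% of the windows of Atp5g2 occur in pseudogenes. The male difference in Atp5g2 over Atp5g3 was 0.04 (95% interval -0.05 to 0.14). Cox6b2, a form of subunit 6b known from testis, averaged 0.924 CPM over all mice.

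Between the sexes, subunit genes lay higher in females in both genotypes, except under scaling to cardiomyocyte markers for complexes III and V in Ctrl (medians of -0.04 and -0.01) and complex III in cKO (-0.01). In Ctrl mice 38 of 41 lay above 0 (female over male, median 0.07), against 51.1% of all genes, and 1 was called higher, Cox6b2, where 0.287% of all genes were called higher. Cox6b2 was at 0.355 to 0.977 CPM in Ctrl males and 0.893 to 2.02 CPM in Ctrl females (log2 fold change 1.18, edgeR adjusted p = 0.0273, SE 0.26). It missed the threshold when replicate numbers entered the fit as blocks (edgeR adjusted p = 0.0579), without Ctrl males 3 and 6 (0.14), or without Ctrl male 2, 3, 4, 5 or 6 or Ctrl female 4 or 5 singly (0.0573 to 0.0918).

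In cKO mice 40 of 41 lay above 0 with a median of 0.15, against 51.9% of all genes, and 13 were called higher in females, where 1.43% of all genes were. They are Uqcrh of complex III; Cox4i1, Cox5a, Cox5b, Cox6a1, Cox6a2, Cox6c, Cox7a2 and Cox7c of complex IV; and Atp5e, Atp5g2, Atp5k and Atp5o of complex V. The largest of these differences was that of Atp5e, the ε subunit of the F1 head, at 281.1, 312.8 and 329.6 CPM in the lowest, median and highest cKO male and 327.5, 381.3 and 459.2 CPM in cKO females (log2 fold change 0.31, edgeR adjusted p = 0.00821, SE 0.06). Cox7a2 followed, at 209.4 to 244.2 CPM in cKO males and 248.4 to 322.2 CPM in cKO females, without overlap (0.27, edgeR adjusted p = 0.0126, SE 0.06). Cox6a2 and Cox6a1 were higher by like amounts, 0.24 and 0.23 (edgeR adjusted p = 0.017 and 0.0181). In 5 genes the groups did not overlap (Uqcrh, Uqcr11, Cox6c, Cox7a2 and Cox7b), against 0.567% of all genes. The comparison of cKO with Ctrl in males shares the cKO males with this one.

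This difference was smaller for complexes III and IV with offsets for length and GC content. With them, 6 of the 41 were called higher (0.964% of all genes), and the median fell from 0.12 to 0.03 for complex III, from 0.19 to 0.11 for complex IV. The count was 20 by the DESeq2 Wald test (2.38% of all genes). It was 5 without cKO female 2, cKO female 4 or cKO male 1, where 119, 85 and 108 of all genes were called higher, against 219 with all mice. It was 7 or 8 without cKO male 2, 5, 6 or 7 or cKO female 3 or 7, where 120 to 158 of all genes were. Scaling to cardiomyocyte markers left 1 of the 41 called, with medians of -0.01, 0.07 and 0.04 for complexes III, IV and V, and turned the calls over all genes from 219 higher and 195 lower to 55 and 1560. The cKO females were also the shallower libraries, at 14403102 to 21594470 counts against 17372414 to 25447630 for cKO males, and the part of depth in the result was not tested.

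The partners of these genes were taken from lists of nuclear genes outside the symbol rule: cytochrome c, other subunits, and assembly and copper or haem delivery factors. Of 43 such genes 42 were tested (Pet117 missed the filter). In males 37 lay below 0, against 49.7% of all genes tested, with a median of -0.11. In males 1 partner was called lower, where 0.26% of all genes were. Cytochrome c itself, Cycs, which shuttles electrons from complex III to complex IV, was called lower in males, from 575.7 ± 38.3 CPM (SD, n = 6) to 485.6 ± 33.0 CPM (SD, n = 7), with a log2 fold change of -0.25 (edgeR adjusted p = 0.0316, SE 0.05). It was not called without Ctrl male 5 (0.107), without Ctrl males 3 and 6 (0.0545), or without Ctrl male 3 or 4 or cKO male 1, 2, 4, 5 or 6 singly (0.0509 to 0.083), or with the length and GC offsets (0.064). Nor was it called in a fit of the compared groups alone (0.0528). Under scaling to the summed cardiomyocyte markers its log2 fold change in males was -0.10 (edgeR adjusted p = 0.348). Over both sexes 0.866% of all genes were called lower. The 2 partners called were Cycs (-0.17, edgeR adjusted p = 0.0168) and Cmc2, a factor of copper delivery to complex IV (-0.22, edgeR adjusted p = 0.0417, SE 0.06). None was called in females, where the median was -0.06.

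By complex, the male medians were -0.12 for 10 complex III partners, -0.08 for 25 complex IV partners and -0.12 for 6 complex V partners. The assembly factors for ATP synthase were all below 0 in males, from -0.22 (Fmc1) to -0.08 (Dmac2l). Fmc1 separated the male groups (edgeR adjusted p = 0.0605), as 0.873% of all genes did with cKO lower.

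Of the 6 subunits made in the mitochondrion, 1 had a log2 fold change below 0 in males, and a difference from the nuclear genes was not tested. mt-Co1, the catalytic subunit of complex IV, had a log2 fold change of 0.04 (SE 0.06), mt-Co2 of 0.14 (SE 0.13) and mt-Co3 of 0.16 (SE 0.20). mt-Atp6 and mt-Atp8 of complex V were at 0.31 (SE 0.23) and 0.54 (SE 0.41), and mt-Cytb of complex III at -0.09 (SE 0.07). In females all 6 lay below 0, with a median of -0.08. None was called in either sex. These transcripts varied between libraries more than the nuclear ones, as the standard errors of all but mt-Co1 and mt-Cytb show.

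Markers of heart muscle cells moved with the subunit genes. Of 8 cardiomyocyte markers 7 lay below 0 in males, against 49.7% of all genes, with a median of -0.16. In males 2 were called lower, where 0.26% of all genes were: Tnni3, cardiac troponin I (-0.24, edgeR adjusted p = 0.0316, SE 0.05), and Myl3, a ventricular light chain (-0.20, edgeR adjusted p = 0.0374, SE 0.05). Ryr2, the calcium release channel, was at 0.03. Their summed level was 68140 to 76060 CPM in Ctrl males, 59771 to 70957 CPM in cKO males, 68917 to 82074 CPM in Ctrl females and 64805 to 77097 CPM in cKO females. All 6 fibroblast markers lay above 0 in males (median 0.15, 0 called), with sums of 701 to 1017 CPM in Ctrl and 821 to 1094 CPM in cKO. Macrophage markers summed to 102 to 167 CPM in Ctrl males and 117 to 168 CPM in cKO males, endothelial markers to 781 to 1085 and 734 to 953 CPM, and smooth muscle and pericyte markers to 703 to 971 and 702 to 919 CPM. None of these 15 markers was called in males. Of 4 brown adipocyte markers, Ucp1 had at most 2 counts in any library, Adipoq at most 38 and Plin1 at most 21, while Cidea had 285 to 798. Their sum was 21.6 to 25.6 CPM in Ctrl males and 16.9 to 21.98 CPM in cKO males, and the 3 that were tested lay between -0.27 and 1.24 in males, with 0 called.

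When libraries were scaled to the summed cardiomyocyte markers, the male medians became 0.00 for complex III, 0.00 for complex IV and -0.01 for complex V, and no subunit gene was called in males, in females or over both sexes, where 0.0651%, 0.00651% and 0.0781% of all genes were called lower. That scaling moves the median of all genes by 0.14 in males, 0.08 in females and 0.11 over both sexes, and it calls 1037 genes in males (1027 higher and 10 lower) in place of 68 (28 higher and 40 lower). Scaling moves all genes of a library alike, so the subunit genes lay below the median of all genes under either scaling. Relative to the summed cardiomyocyte markers they did not lie lower. The part of the cardiomyocyte share in the result was not tested.

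**Figure D5:**
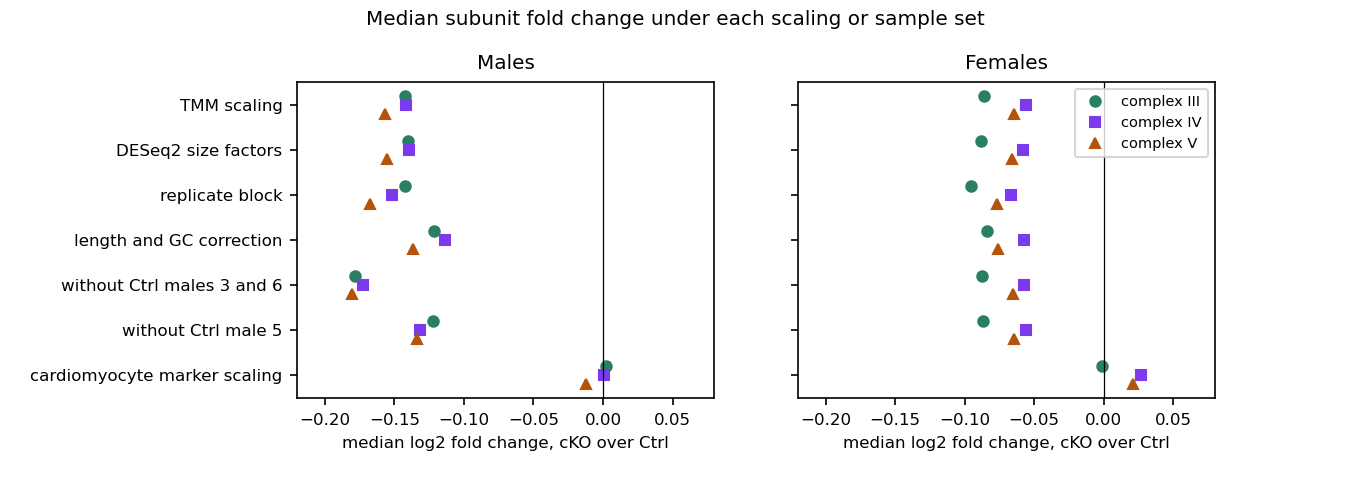
Median log2 fold change of cKO over Ctrl (horizontal axis) of the subunit genes of each complex in males and females, for several scalings, corrections or sets of samples (vertical axis). The medians stay between -0.18 and -0.11 in males under all but the scaling to cardiomyocyte markers, which brings them to between -0.01 and 0.00.

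The pseudogene copies were counted apart from the subunit genes. Of the 13 copies 8 were tested, and 5 of these lay below 0 in males (median -0.15) and 4 in females (median 0.01). None was called in any of the 6 contrasts. Their standard errors had a median of 0.16 in males, against 0.05 for the subunit genes.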

How the data were processed

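Whole-number counts per gene were deposited by the authors for 26 left ventricle libraries in 1 matrix, without normalization; every column matched 1 sample. Per the labels' protocols, 500 ng of RNA (integrity number at least 7.7, from about 20 mg of tissue) went into strand-specific poly-A libraries. The submitters' processing notes name FastQC 0.74, cutadapt 4.6, STAR 2.7.11a, HTSeq and GRCm39, with no role or order. The annotation release and the strand setting of counting are not given in the sources used here, so reads of near-identical copies and of overlapping genes may have been split or lost.

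Counts were fitted in R 4.3.3 with edgeR 4.0.16: filterByExpr (minimum count 10), TMM scaling, robust quasi-likelihood with 4 group means over all 26 mice, 6 contrasts and Benjamini-Hochberg adjustment over 15357 genes, called under 0.05. CPM use TMM-scaled totals. Libraries held 14403102 to 30867399 counts, and 3 counts correspond to 0.0928 to 0.21 CPM. P-values weigh a difference between groups against the spread between these mice. Isoform ratios used log2 counts with a prior of 0.5, exact permutation tests and intervals at the 95% level. Lengths, chromosomes, transcript sequences and biotypes came from GENCODE M21 (GRCm38) by gene ID (length and GC for 98.3% of genes tested and all 43 subunit genes), so no coordinate of a counted gene is given. Levels per kilobase used the shortest principal coding transcript. Promoters came from RefSeq (GRCm38.p6). The fit and the permutation test were tested on simulated data.

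Members and lists were chosen with earlier results of these data known, and nothing here is independent support for them. Named genes were subunit genes called in any contrast, isoform pairs, for each complex the most abundant gene and those of smallest p in each sex, untested coding genes, called partners and all mitochondrially encoded ones; others named were chosen after their values were seen. Alternatives were DESeq2 1.42.0 (size factors, Wald test), limma 3.58.1 voom, fits of the compared groups alone, 1 surrogate variable (sva 3.50.0), blocks of equal replicate number, a filter at a mean of 5 CPM or none, estimation that is not robust, length and GC offsets (splines with 4 degrees of freedom), omission of mitochondrial genes, scaling to cardiomyocyte markers, and mice left out. Length and GC of the longest annotated transcript was added after seeing the data.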

Additional observations from a re-analysis of the deposited data

Results flagged for a closer look

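Groups were searched for a mouse far from the others of its group, in 144 checks of a gene or a sum within a group, of which chance flags about 7.2. In 6 checks the gap between the outermost mouse and its neighbour exceeded Dixon's 95% limit as a share of the group's range. Ctrl female 6 had Atp5pb at 994.5 CPM, against 1116 to 1160 CPM in the other Ctrl females, and a complex V sum of 19481 CPM, against 20934 to 21617 CPM. Ctrl female 3 had Cox8a at 100.8 CPM, against 117.9 to 122.1 CPM. The other 3 concern cKO male 1, the lowest cKO male in 26 of the 41 genes: Cox6c at 636 CPM (the others 701.5 to 723.7 CPM), Cox7c at 359 CPM (391.3 to 409.9 CPM) and Cox6b2 at 0.217 CPM (0.509 to 0.756 CPM). Without cKO male 1 the median fold change of complex IV in males was -0.12.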

How the results depend on the processing

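The direction in males held for the median of each complex in all alternatives but the scaling to cardiomyocyte markers, and the number of genes called depended on the method, the filter and single mice. The causes of these shifts were not tested, and the precision of Cox6b2 is limited by its 5 to 50 counts a mouse.

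Subunit genes called numbered 2 in males, 9 over both sexes, 1 between the sexes in Ctrl and 13 between the sexes in cKO. In females and for the difference between the sexes the number was 0 under all alternatives run. The DESeq2 Wald test called 15 in males, 17 over both sexes and 20 between the sexes in cKO. Without the expression filter these became 1, 4 and 5. A mean of at least 5 CPM gave 5 in males and 0 between the sexes in Ctrl. Length and GC offsets gave 1 in males, 3 over both sexes and 6 in cKO, and with the longest annotated transcript 0 in males and 4 over both sexes. Scaling to cardiomyocyte markers gave 0 in males, 0 over both sexes and 1 in cKO. Omitting Ctrl males 3 and 6 gave 0 in males and 0 in Ctrl, and a fit of the compared groups alone gave 0 in Ctrl. Leaving out 1 mouse at a time gave 0 to 3 in males, 3 to 14 over both sexes, 0 to 1 in Ctrl and 5 to 17 in cKO. The calls among all genes tested then ran from 4 to 122 in males, 96 to 349 over both sexes, 54 to 125 in Ctrl and 163 to 548 in cKO. Over all genes, males had 68 calls, 399 by DESeq2, 188 by limma voom, 31 without a filter, 164 at 5 CPM, 132 with a surrogate variable, 18 with length and GC offsets (2 higher, 16 lower) and 7 without Ctrl males 3 and 6. Over both sexes the split of 72 higher and 133 lower became 21 and 116 with the offsets and 1667 and 12 under the marker scaling.

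Replicate numbers were not taken to pair the mice in the main fit. The mean correlation of same-numbered deviations was -0.03 in males (0 of 6 pairs over 0.1), against 0.004 for other pairs. In females it was 0.12 (3 of 6), against -0.02 for other pairs. Whether same-numbered females share an origin or a batch was not tested. With the numbers as a replicate block, calls were 2 in males, 4 over both sexes and 0 between the sexes in Ctrl, and with block and offsets 1, 3 and 0, and 4 in cKO. The block turned the difference in Cox6a2 over Cox6a1 in males to 0.0173 and that in Atp5g1 over Atp5g3 to -0.00995.

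Medians by complex (III, IV, V) under the marker scaling were 0.00249, 0.000906 and -0.0120 in males, -0.000942, 0.0270 and 0.0210 in females, and -0.00266, 0.00680 and -0.00324 over both sexes. For complex III they were -0.0168 for the difference between the sexes in the genotype effect and -0.0384 between the sexes in Ctrl. In cKO, female over male, they were -0.00882, 0.0706 and 0.0388. Length and GC offsets gave 0.0333 for complex III and 0.112 for complex IV there, 0.0356 and 0.111 with the block, and 0.0526 for complex III with the longest transcript. The male values of Cox8b, Cox6a2, Cox8a and Cox6a1 turned to 0.0208, 0.00562, 0.0492 and 0.00659 under the marker scaling.

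Isoform ratios near 0 changed sign. With length and GC offsets Cox6a2 over Cox6a1 was 0.0202 in males and -0.00357 between the sexes in the genotype effect, Atp5g1 over Atp5g3 was -0.0549 in males and 0.0725 between the sexes in cKO, and Atp5g2 over Atp5g3 was 0.00183 between the sexes in the genotype effect. Leaving out 1 mouse at a time, Cox6a2 over Cox6a1 ran from -0.0379 to 0.0372 in males, -0.0379 to 0.0508 in females, -0.0447 to 0.0454 between the sexes in Ctrl, -0.0296 to 0.0360 in cKO and -0.0354 to 0.0547 in the genotype effect. Cox7a1 over Cox7a2 ran from -0.0473 to 0.0282 in males. Cox4i2 over Cox4i1 ran from -0.0301 to 0.0781 in males, -0.117 to 0.0635 in females, -0.138 to 0.0424 between the sexes in Ctrl and -0.142 to 0.0377 in the genotype effect. Atp5g1 over Atp5g3 ran from -0.0344 to 0.0742 in males, -0.118 to 0.0174 in females, -0.00922 to 0.126 between the sexes in Ctrl and -0.0660 to 0.0312 in cKO, and Atp5g2 over Atp5g3 from -0.0386 to 0.00987 in the genotype effect. No isoform ratio passed under any alternative run.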
